A study of Mus musculus with 12 samples.

Results

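A set of 7 genes of the NADPH oxidase family, the listed members Nox4, Cybb, Cyba, Ncf1, Ncf4, Rac1 and Rac2, were followed across 12 RNA-seq libraries of mouse renal cortex. The members were chosen by name, and all 7 of 7 were among the 46095 gene symbols of the count table and among the 17530 genes tested. The libraries came from C57BL/6 mice of 12 weeks: 4 treated with sodium butyrate on top of diabetic nephropathy (DN+NaB), 4 with diabetic nephropathy alone (DN, the kidney disease of diabetes) and 4 normal controls (NC). Sodium butyrate is the salt of a short-chain fatty acid of gut bacteria that inhibits histone deacetylases. How the animals were made diabetic and how the butyrate was given are not in the labels, nor is the animal behind each library. The p-values therefore set group differences against the spread between libraries, and whether these are separate animals is not known.

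NADPH oxidases move electrons from NADPH across a membrane to oxygen and so release superoxide or hydrogen peroxide. A membrane core of a catalytic NOX protein and the partner encoded by Cyba does the transfer. In phagocytes the catalytic protein NOX2, encoded by Cybb, is silent until the cytosolic subunits such as those encoded by Ncf1 and Ncf4, and a Rac GTPase join it, and this makes the oxidative burst that kills microbes. NOX4, abundant in the kidney and mainly in tubules, needs only the Cyba protein and releases mostly hydrogen peroxide without that trigger. Both have been studied as sources of oxidants in diabetic kidneys.

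Library totals ran from 58394975 to 70674015 counts (median 63588713). Values below are CPM, counts scaled to library size and composition. The extraction protocol names another tissue, prefrontal cortex. Of 8 brain markers, Snap25 was at 0 counts throughout (a count of 0 allows up to 3 per library) and 6 others had 0 to 69 counts per library, while Mbp, a myelin gene, had 942 to 1501. The 8 summed to 17.2 to 25.2 CPM, and 12 proximal tubule markers to 24577 to 41621 CPM per library. A row at 0 may not show absence, since the leukocyte genes Aif1, Trac and Ighm were also at 0 in all 12 libraries. DN replicate 4 stood apart in neutrophil markers, but not in those of T, NK, B and plasma cells. Its macrophage markers summed to 535 CPM, against 292 to 312 CPM in the other DN libraries and 395 to 497 CPM in NC. It also differed outside leukocytes, with the lowest proximal tubule sum (24577 CPM). Its Col1a1 was at 114 CPM, against 12.6 to 23.8 CPM in the other DN libraries and 92.5 to 127 CPM in NC. Its 12 neutrophil markers summed to 82.2 CPM, against 1.80 to 14.6 CPM in the other 11 libraries, and 51.1 CPM of that came from Ltf, a gene also expressed in epithelia. The 11 others summed to 31.1 CPM there and to 1.14 to 5.84 CPM elsewhere. In that library Csf3r had 822 counts, S100a9 321, Retnlg 231, S100a8 229, Mmp8 152 and Cxcr2 137. Ngp had 18 counts there, Elane 10, Ly6g 6, Mpo 2 and Camp 0. The main results on phagocyte genes in comparisons with DN are therefore given with and without it. In cortex tissue, fewer cells of a type and less RNA per cell cannot be told apart.

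The membrane cores are shown by the 250 bases before the RefSeq start of Nox4, Cybb and Cyba, the catalytic genes and their common partner (GRCm38.p6, 5′ to 3′ on the strand of the gene). Capitals mark GGGCGG, the GC box, on this strand or, as its reverse complement, on the other. The windows are chr7:87246399-87246648 on the plus strand for Nox4, chrX:9469325-9469574 on the minus strand for Cybb and chr8:122432941-122433190 on the minus strand for Cyba.
Nox4: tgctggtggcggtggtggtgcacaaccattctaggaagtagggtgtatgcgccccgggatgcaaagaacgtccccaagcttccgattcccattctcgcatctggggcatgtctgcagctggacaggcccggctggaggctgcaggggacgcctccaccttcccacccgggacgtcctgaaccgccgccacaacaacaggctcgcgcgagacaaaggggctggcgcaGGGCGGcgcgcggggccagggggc
Cybb: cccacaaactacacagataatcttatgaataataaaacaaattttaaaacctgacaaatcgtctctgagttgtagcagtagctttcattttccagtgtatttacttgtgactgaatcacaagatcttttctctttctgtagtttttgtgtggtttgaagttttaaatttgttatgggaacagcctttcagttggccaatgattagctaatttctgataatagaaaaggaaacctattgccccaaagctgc
Cyba: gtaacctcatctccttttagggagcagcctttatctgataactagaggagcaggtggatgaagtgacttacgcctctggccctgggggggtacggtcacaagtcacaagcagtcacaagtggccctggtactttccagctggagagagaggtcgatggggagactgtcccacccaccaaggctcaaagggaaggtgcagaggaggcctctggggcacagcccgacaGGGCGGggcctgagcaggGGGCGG
The GC box occurred 1 time in the Nox4 window, 2 times in the Cyba window and 0 times in the Cybb window, and 32.7% of 32851 RefSeq promoter windows of this length held it on either strand. The GC content was 67.2% for Nox4, 60.0% for Cyba and 34.0% for Cybb, against a median of 52.4% over all windows; 3.87% of windows were poorer in G and C than that of Cybb. The windows do not overlap each other, nor do the matches.

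Levels set per kilobase of exon (CPM per kb, with GENCODE exon lengths) placed Cyba far above the rest, at 427 ± 31.1 in DN+NaB, 415 ± 93.9 in DN and 418 ± 42.2 in NC (mean ± SD, n = 4 each). Rac1 followed with 38.4 ± 0.694 CPM per kb in DN+NaB, 37.3 ± 1.28 in DN and 37.3 ± 2.88 in NC. Nox4 had 26.9 ± 12.3, 29.5 ± 12.9 and 18.4 ± 5.97 CPM per kb in DN+NaB, DN and NC, so that Rac1 and Nox4 lay apart by more than their SDs in NC only. The phagocyte genes were lower. Rac2 had 1.47 ± 0.247, 2.94 ± 1.12 and 3.93 ± 0.491 CPM per kb in DN+NaB, DN and NC, and Cybb 1.07 ± 0.307, 1.95 ± 1.13 and 2.01 ± 0.321. Ncf1 had 0.916 ± 0.297, 1.72 ± 1.19 and 1.42 ± 0.166 CPM per kb in DN+NaB, DN and NC, and Ncf4 0.655 ± 0.309, 1.31 ± 0.654 and 0.584 ± 0.174. With these lengths the order Rac2, Cybb, Ncf1, Ncf4 was the same in all 3 groups. Neighbours in it lay apart by more than their SDs in NC, but not in DN or DN+NaB. The lengths join the exons of all annotated transcripts of a gene. The order may depend on this choice, which the SDs between libraries do not cover.

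**Figure D1:**
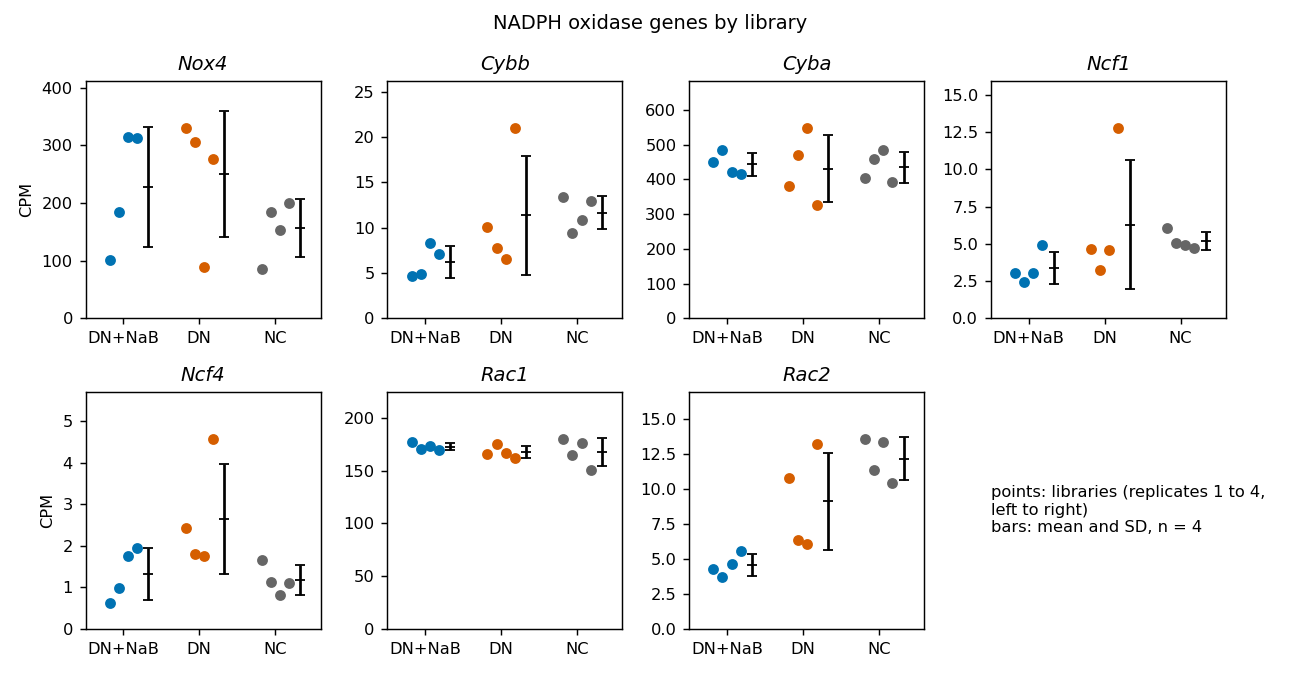
CPM of each NADPH oxidase gene (vertical axis, from 0) in the 4 libraries of DN+NaB, DN and NC (horizontal axis), with the mean and SD beside the points. The groups of Rac1 and of Cyba overlap, Nox4 spreads from 85.9 to 329 CPM within groups, and for Cybb, Ncf1 and Ncf4 DN replicate 4 is the highest point.

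Nox4, the catalytic subunit of the tubule, spread widely within groups and did not pass the test in any comparison. It had 101, 184, 314 and 313 CPM in DN+NaB replicates 1 to 4, 329, 305, 89.6 and 276 CPM in DN replicates 1 to 4, and 85.9, 184, 154 and 200 CPM in NC replicates 1 to 4. 3 of 4 DN libraries and 2 of 4 DN+NaB libraries lay above every NC library, while DN replicate 3 and DN+NaB replicate 1 lay among the lowest, so all groups overlapped. The log2 fold change was 0.68 ± 0.44 (SE) in DN against NC (adjusted p = 0.420) and 0.55 ± 0.44 in DN+NaB against NC (adjusted p = 0.444), by edgeR's quasi-likelihood test with Benjamini-Hochberg adjustment over 17530 genes. Between DN+NaB and DN it was -0.13 ± 0.44 (adjusted p = 0.936), with a 95% interval of -1.10 to 0.83. This last sign turned without DN replicate 1 (0.03) or without DN+NaB replicate 1 (0.11).

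Nox4 stood beside the share of counts taken by the 13 mitochondrially encoded protein genes, which was 0.518%, 1.16%, 2.83% and 2.83% in DN+NaB replicates 1 to 4, 2.76%, 2.90%, 0.361% and 2.598% in DN replicates 1 to 4, and 0.494%, 0.944%, 1.04% and 1.01% in NC replicates 1 to 4. The 5 libraries with a share of 2.598% to 2.90% held 276 to 329 CPM of Nox4, and the 7 with 0.361% to 1.16% held 85.9 to 200 CPM, so the 2 sets did not overlap in either value. The higher set had 2 DN+NaB, 3 DN and 0 NC libraries. Among the 7 lower libraries the log2 values had a Pearson r of 0.94 and a Spearman rho of 0.68, and without the 2 libraries farthest from the median share r was 0.90 (n = 5). These are descriptions with no test, since Nox4 and this share were set together after their values were seen. The part of this share in the Nox4 differences was not tested.

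**Figure D2:**
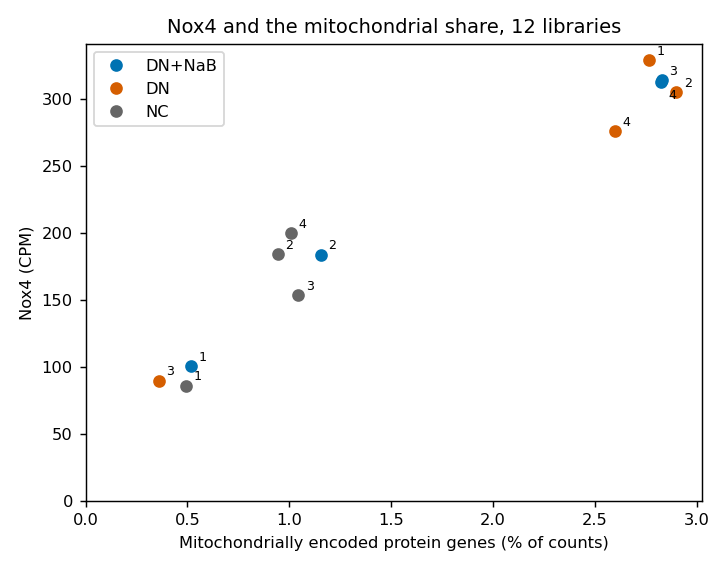
Nox4 in CPM (vertical axis) against the percent of counts in 13 mitochondrially encoded protein genes (horizontal axis) for the 12 libraries, coloured by group and numbered by replicate. The 5 libraries at 2.598% to 2.90% all lie at 276 CPM or more, and the NC libraries all lie at 1.04% or less.

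Cybb, the catalytic subunit of phagocytes, had 4.61, 4.85, 8.28 and 7.13 CPM in DN+NaB replicates 1 to 4, 10.1, 7.78, 6.59 and 20.95 CPM in DN replicates 1 to 4, and 13.4, 9.41, 10.9 and 12.9 CPM in NC replicates 1 to 4. All 4 DN+NaB libraries lay below all 4 NC libraries, while DN overlapped both groups and held the highest value of all. The log2 fold change in DN+NaB against NC was -0.91 ± 0.32 (adjusted p = 0.0746), which misses the threshold of 0.05. It passed by DESeq2 (adjusted p = 0.0272) and in 4 other of the 19 alternatives, among them without DN replicate 4 (0.00977) and without DN replicate 3 (0.0466), over which adjusted p ran from 0.00977 to 0.185. In DN+NaB against DN the value was -0.87 ± 0.32 (adjusted p = 0.406), and without DN replicate 4 it was -0.39. In DN against NC it was -0.04 ± 0.32 (adjusted p = 0.968), and -0.53 without DN replicate 4.

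Cyba, whose protein holds NOX2 or NOX4 in the membrane, did not pass the test in any comparison. It had 450, 486, 421 and 416 CPM in DN+NaB replicates 1 to 4, 380, 471, 547 and 327 CPM in DN replicates 1 to 4, and 403, 458, 485 and 393 CPM in NC replicates 1 to 4. All groups overlapped, and DN held both the highest and the lowest library; the lowest, replicate 4, was the highest in Cybb. The log2 fold change was -0.01 ± 0.15 in DN against NC, with a 95% interval of -0.32 to 0.30. It was 0.04 ± 0.15 in DN+NaB against DN and 0.03 ± 0.15 in DN+NaB against NC (intervals -0.27 to 0.35 and -0.28 to 0.34). Adjusted p by edgeR was 0.981, 0.943 and 0.920 in these 3 comparisons, and the sign of the last was negative when libraries were scaled by size alone (-0.082).

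Ncf1, the organizer that brings the cytosolic subunits to the membrane, had 3.06, 2.42, 3.01 and 4.92 CPM in DN+NaB replicates 1 to 4, 4.62, 3.24, 4.56 and 12.8 CPM in DN replicates 1 to 4, and 6.08, 5.03, 4.94 and 4.70 CPM in NC replicates 1 to 4. 3 of 4 DN+NaB libraries lay below all NC libraries, and DN replicate 4 was the only library above them. In DN+NaB against DN the log2 fold change was -0.91 ± 0.36 (adjusted p = 0.442) and -0.29 without DN replicate 4. In DN against NC it was 0.28 ± 0.36 (adjusted p = 0.723), and its sign turned to -0.35 without that library. The value was -0.63 ± 0.36 in DN+NaB against NC (adjusted p = 0.270). In GENCODE's GRCm38 annotation, exons of Ncf1 overlap those of Gtf2ird2 on the opposite strand over 408 bases, and since the strand setting of the counting is not given, reads there cannot be told apart.

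Ncf4, the subunit that binds phosphoinositides of the phagosome, was the lowest of the members and the one with the largest fold between DN and NC. It had 0.613, 0.993, 1.74 and 1.94 CPM in DN+NaB replicates 1 to 4, 2.43, 1.81, 1.76 and 4.57 CPM in DN replicates 1 to 4, and 1.67, 1.13, 0.828 and 1.10 CPM in NC replicates 1 to 4. These are 36 to 135 counts per DN+NaB library, 103 to 283 per DN library and 55 to 109 per NC library. All DN libraries lay above all NC libraries, and DN+NaB spanned both. In DN against NC the log2 fold change was 1.16 ± 0.40 (adjusted p = 0.0932), 0.74 without DN replicate 4 (adjusted p = 0.228), and it passed by DESeq2 alone (adjusted p = 0.0350) of the 19 alternatives, over which adjusted p ran to 0.228. In DN+NaB against DN it was -0.995 ± 0.39 (adjusted p = 0.437), and -0.59 without DN replicate 4. The value was 0.17 ± 0.40 in DN+NaB against NC (adjusted p = 0.817).

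Rac1, the GTPase present in nearly all cells, varied least. It had 170 to 177 CPM in DN+NaB, 162 to 176 CPM in DN and 151 to 180 CPM in NC, and the groups overlapped. Its log2 fold change was 0.04 ± 0.09 in DN+NaB against DN, 0.04 ± 0.09 in DN+NaB against NC and -0.00 ± 0.09 in DN against NC, with 95% intervals of -0.14 to 0.23, -0.14 to 0.23 and -0.19 to 0.18. Adjusted p by edgeR was 0.883, 0.784 and 0.994. With libraries scaled by size alone the value in DN+NaB against NC was -0.068. Exons of Rac1 overlap those of Daglb on the opposite strand over 2309 bases in the same annotation, so that 50.3% of the 50-base stretches of Rac1 transcripts also lie in Daglb transcripts. Daglb had 1413 to 2448 counts per library, against 9973 to 11843 for Rac1.

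Rac2, the GTPase of blood cells that joins the phagocyte oxidase, was the single member that passed the test, and it was lower in DN+NaB than in NC. It had 4.32, 3.73, 4.67 and 5.56 CPM in DN+NaB replicates 1 to 4, 10.8, 6.39, 6.06 and 13.2 CPM in DN replicates 1 to 4, and 13.6, 11.3, 13.4 and 10.5 CPM in NC replicates 1 to 4. All 4 DN+NaB libraries lay below every library of DN and NC, and DN replicates 2 and 3 lay between the DN+NaB and NC libraries. The log2 fold change in DN+NaB against NC was -1.41 ± 0.24 (adjusted p = 0.00130, n = 4 per group, edgeR), 0.375 of the NC level, and it passed in 19 of 19 alternatives (adjusted p from 4.08e-07 to 0.00627). In DN+NaB against DN it was -0.996 ± 0.24 (adjusted p = 0.141). That comparison passed by DESeq2 (adjusted p = 0.00834) and without DN replicate 3 (adjusted p = 0.0471) among 19 alternatives that ran to 0.405, and the value without DN replicate 4 was -0.76. In DN against NC it was -0.42 ± 0.23 (adjusted p = 0.325), and -0.67 without DN replicate 4 (adjusted p = 0.0703).

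**Figure D3:**
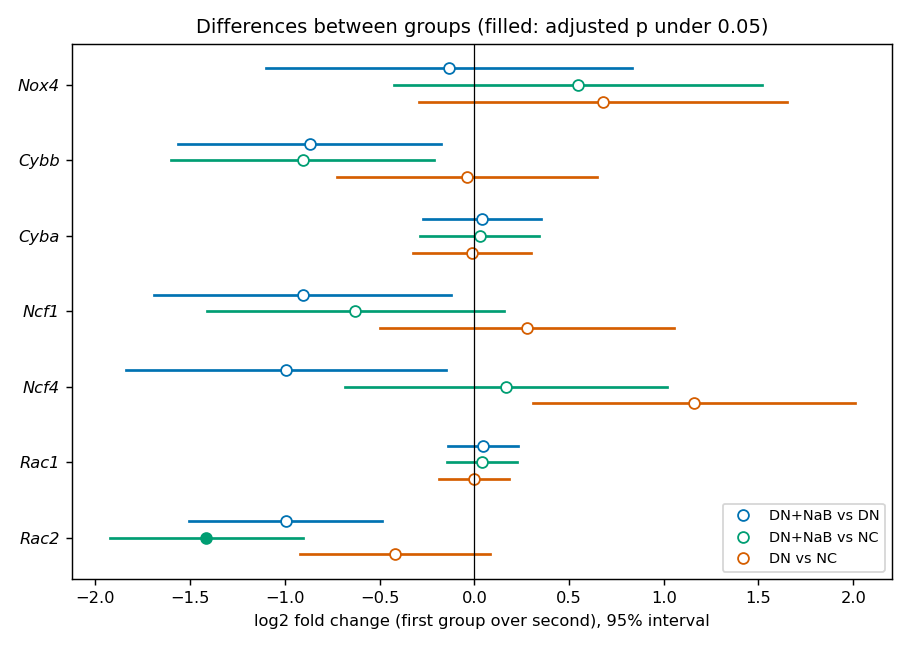
Log2 fold change (horizontal axis) of each gene with its 95% interval in DN+NaB against DN, DN+NaB against NC and DN against NC; filled points passed an adjusted p of 0.05. Rac2 in DN+NaB against NC, at -1.41, is the 1 filled point.

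Read over all 7 members, 0 passed edgeR's test in DN+NaB against DN, where 0.0228% of all genes did. At an unadjusted p under 0.05 there were 4 (Cybb, Ncf1, Ncf4 and Rac2, each lower), against 9.85% of all genes, and by DESeq2 1 member (Rac2) passed, against 1.47% of genes. Groups did not overlap for 1 member, Rac2, against 4.56% of genes. In DN+NaB against NC 1 member passed, against 15.6% of all genes and 8.94% in that direction, and by DESeq2 2 passed (Rac2 and Cybb), against 20.4%. At an unadjusted p under 0.05 there were 2 (Cybb and Rac2), against 30.1%, and for the same 2 the groups did not overlap, against 27.9%. In DN against NC 0 passed by edgeR, against 8.23% of genes, 1 (Ncf4) passed by DESeq2, against 12.3%, and 1 (Ncf4) had an unadjusted p under 0.05, against 21.9%. Groups did not overlap for Ncf4 alone, against 13.3% of genes. The median log2 fold change over the members was -0.87 in DN+NaB against DN, 0.03 in DN+NaB against NC and -0.00 in DN against NC, beside -0.02, -0.01 and 0.01 over all genes. Without DN replicate 4 the median in DN+NaB against DN was -0.29, and 1 member (Rac2) had an unadjusted p under 0.05, against 7.46% of genes. In DN against NC 2 members (Cybb and Rac2, both lower) then had such a p, against 26.4%, and Ncf4 did not. In DN+NaB against NC 3 members (Cybb, Ncf1 and Rac2, each lower) then had such a p, against 34.1%. The comparisons share libraries, so their values are not independent of each other.

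Macrophage markers were lower with Rac2 and Cybb in DN+NaB against NC. In DN against NC the log2 fold change of Ncf4 was positive. For the 17 macrophage markers tested it was negative for 12 there and positive for 5. The 18 macrophage markers summed to 249 to 288 CPM in DN+NaB, 292 to 535 CPM in DN and 395 to 497 CPM in NC. DN replicates 1 to 3 held 292 to 312 CPM of them and DN replicate 4 held 535, while Aif1 was at 0 counts in all 12 libraries. Of the 17 tested, 10 were called lower in DN+NaB than NC, 0 in DN+NaB than DN and 2 (Csf1r and Mrc1) in DN than NC. The medians were -0.83, -0.54 and -0.32 in the same order. Without DN replicate 4 they were -0.85, -0.20 and -0.60, and 14, 0 and 6 markers were called by edgeR. At an unadjusted p under 0.05 by edgeR there were then 16, 3 and 11 markers. Among all genes the shares at that threshold were 34.1%, 7.46% and 26.4%. The 12 T and NK cell markers, cells in which Rac2 is also expressed, summed to 2.86 to 4.51 CPM in DN+NaB, 6.84 to 24.0 CPM in DN and 18.7 to 32.3 CPM in NC, and of 10 tested 9 were called lower in DN+NaB than NC, 1 (Cd5) in DN+NaB than DN and 2 (Cd4 and Nkg7) in DN than NC, with medians of -3.0, -2.27 and -1.04. For 6 of the 10 the DN+NaB libraries all lay below the DN libraries, as for Rac2. These 2 groups did not overlap, in either direction, for 4.56% of all genes. Among all genes 8.94% were called lower in DN+NaB than NC. In either direction 0.0228% of all genes were called in DN+NaB against DN and 8.23% in DN against NC. The 8 B and plasma cell markers summed to 1.55 to 1.87 CPM in DN+NaB, 1.71 to 2.76 CPM in DN and 8.20 to 25.1 CPM in NC. The 12 neutrophil markers, 7 of them tested and 0 called by edgeR in any comparison, summed to 1.80 to 14.6 CPM in DN+NaB, 3.396 to 82.2 CPM in DN and 3.75 to 5.58 CPM in NC. Their median log2 fold change was 0.12 in DN+NaB against NC, -1.77 in DN+NaB against DN and 2.20 in DN against NC, and without DN replicate 4 it was 0.11, -0.019 and 0.38. The part of these cell markers in the fall of Rac2 was not tested beyond the ratios that follow.

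The phagocyte members were also set against the summed macrophage markers in each library, as a percent of the markers' CPM. Abundant genes weigh most in this sum. Mertk averaged 70.3 CPM in DN+NaB and 89.1 CPM in NC, and Csf1r 59.7 and 111 CPM. Lower markers count for little, such as Mrc1 (2.71 CPM in DN+NaB and 8.02 CPM in NC) and Fcgr1 (3.21 and 3.44 CPM). A ratio to the sum therefore does not compare a member with each marker. Ncf4 came to 0.242%, 0.399%, 0.640% and 0.674% in DN+NaB replicates 1 to 4, 0.780%, 0.620%, 0.574% and 0.854% in DN replicates 1 to 4, and 0.336%, 0.271%, 0.180% and 0.277% in NC replicates 1 to 4. All DN libraries lay above all NC libraries, a mean log2 difference of 1.43 (exact permutation p = 0.0286, two-sided, n = 4 per group, the smallest that 4 against 4 allows; adjusted p = 0.114 over 12 tests), and 1.33 without DN replicate 4. Rac2 came to 1.70%, 1.498%, 1.72% and 1.93% in DN+NaB, 3.48%, 2.19%, 1.98% and 2.47% in DN, and 2.73%, 2.72%, 2.91% and 2.65% in NC. DN+NaB lay below both other groups, with mean log2 differences of -0.53 against DN and -0.69 against NC (exact permutation p = 0.0286 and adjusted p = 0.114 for each, n = 4 per group). Against Ptprc, the common leukocyte antigen, in place of the macrophage markers, these 2 Rac2 differences turned to 0.31 and 0.59, while that of Ncf4 in DN against NC was 1.86. For Cybb and Ncf1 the groups overlapped in all 3 comparisons, with exact permutation p of 0.114 to 0.800 (n = 4 per group) and adjusted p of 0.274 to 0.800. With 12 tests and this smallest p, an adjusted p under 0.05 would need more of the 12 ratios to reach it than the 3 that did.

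**Figure D4:**
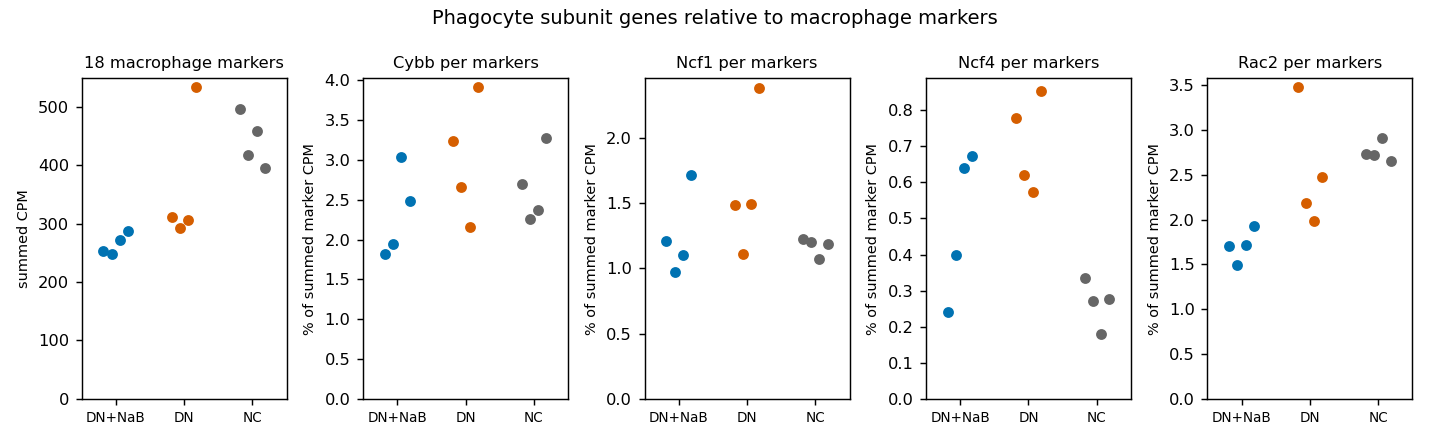
Left, summed CPM of 18 macrophage markers in the 4 libraries of DN+NaB, DN and NC; right, CPM of Cybb, Ncf1, Ncf4 and Rac2 as a percent of that sum (vertical axes from 0). Ncf4 per marker is 0.574% or more in each DN library and 0.336% or less in each NC library, and Rac2 per marker is 1.93% or less in each DN+NaB library.

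Most other subunits of the family were too low to test. Of 9 listed, 3 passed the filter on low counts (Noxo1, Duox1 and Rac3) and 0 were called by edgeR in the 3 comparisons. Noxo1, an organizer for NOX1, averaged 2.53 ± 0.474 CPM in DN+NaB, 2.55 ± 0.693 CPM in DN and 1.48 ± 0.370 CPM in NC (log2 fold change 0.77 ± 0.26 in DN+NaB against NC and 0.79 ± 0.26 in DN against NC, adjusted p = 0.0591 and 0.0827). Its catalytic partner Nox1 had 0 to 2 counts per library and Nox3 0 to 1. Of 22 listed regulators 21 were in the table and tested, and 0 were called in DN+NaB against DN, 4 lower in DN+NaB than NC and 1 lower in DN than NC. Among all genes 8.94% were called lower in DN+NaB than NC. In either direction 0.0228% of all genes were called in DN+NaB against DN and 8.23% in DN against NC. The 4 regulators lower in DN+NaB than NC were Dock2 and Vav1, exchange factors for Rac in leukocytes, Prkcb, a kinase of the cytosolic subunits, and Itgb2, the common leukocyte integrin chain. Dock2 averaged 3.87 CPM in DN+NaB and 11.0 CPM in NC (log2 fold change -1.51 ± 0.26, adjusted p = 0.00144), and Prkcb 3.16 and 6.39 CPM (-1.02 ± 0.18, adjusted p = 0.00196). Prkcb was also lower in DN, with 3.80 CPM in DN and 6.39 CPM in NC (-0.75 ± 0.18, adjusted p = 0.0196). Poldip2, an activator of NOX4, had 163, 143 and 148 CPM in DN+NaB, DN and NC. Of 10 enzymes that remove superoxide and peroxides, among them Sod1, Sod2, Sod3 and Cat, 0 were called by edgeR in any comparison, with medians of 0.18 in DN+NaB against DN, 0.06 in DN+NaB against NC and -0.09 in DN against NC.

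For each member the 3 genes with the most similar log2 CPM over the 12 libraries were found by Pearson r among 12383 other genes of at least 1 CPM, predicted and clone-based symbols left out, a description with no test. For Nox4 they were CYTB and ND1, mitochondrially encoded subunits of the respiratory chain, and Arl8b, a lysosomal GTPase (r = 0.98, 0.98 and 0.97, and 0.98, 0.98 and 0.97 after the group means were removed). For Cybb they were Mbnl2, Bmpr2 and the macrophage gene Mpeg1 (r = 0.98, 0.97 and 0.97), and for Ncf1 Tlr2, Itgam and Lyz2, genes of myeloid cells (0.95, 0.94 and 0.94). For Rac2 they were Itgal, Sla and Coro1a, genes of leukocytes (0.98, 0.98 and 0.98; 0.93, 0.97 and 0.90 after the group means were removed). For Ncf4 they were Apol9b, Apol9a and Herc6, with r of 0.93, 0.92 and 0.91; the first 2 are close copies whose counts are uncertain. For Cyba they were Atg9a, Polr3c and Clptm1 (0.95, 0.95 and 0.94), and for Rac1 Tpd52l1, Iqsec1 and Lsm12 (0.94, 0.86 and 0.86). The r values take in differences between groups and single libraries such as DN replicate 4.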

How the data were processed

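The authors deposited 1 table of raw counts, whole numbers by gene symbol, with a column for each of 12 libraries whose names match the sample titles. The submitters' processing notes list HISAT2 2.0.4. For the counter, its strand setting, the annotation and the genome build, the sources used here give nothing. Groups came from the titles.

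Genes were kept by filterByExpr by group (17530 of 46095) and libraries scaled by TMM factors. All 12 libraries entered 1 robust edgeR 4.0.16 quasi-likelihood fit with group as the only term (R 4.3.3), tested two-sided with Benjamini-Hochberg adjustment over all genes tested and called at an adjusted p under 0.05. Over all genes, log2 fold changes had a median SE of 0.202. Log2 CPM for likeness used a prior count of 2. Ratios to macrophage markers were compared by exact permutation tests. The total counts per library limit low genes such as Ncf4 most. No 2 libraries agreed within sampling noise (smallest chi-square per degree of freedom 23.6). Alternatives were RLE factors, library size only, 2 other filters, DESeq2 1.42.0, fits of 2 groups, a replicate block, and leaving out each library.

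The members and gene lists were chosen with earlier results of these data known. The text names all members, list members that were called or hold a subunit role, and the 3 most similar genes per member; other list genes named with values, such as Snap25, Ltf, Mpo and Poldip2, were chosen after their values were seen. Exon lengths, overlaps and shared 50-base stretches came from GENCODE M21 (GRCm38), and promoter windows from a RefSeq table (GRCm38.p6) in which 4 of the 7 members were matched. Promoters of Ncf4, Rac1 and Rac2 were not used here. The window of Ncf1 is not printed. It held 1 GC box, on the other strand, and had a GC content of 54.4%. Another motif searched, GAGGAA, had 0 matches in the windows of Nox4, Cybb, Cyba and Ncf1, and 23.3% of all windows held it. Some related genes are not reported here.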

Additional observations from a re-analysis of the deposited data

Results flagged for a closer look

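Of 21 member and group combinations, 1 stood out by the gap of 1 library to the rest. Ncf1 had 12.8 CPM in DN replicate 4, while the next DN library had 4.62, a gap of 0.854 of the range of the group and above Dixon's 95% critical value for 4 samples. Chance alone flags about 1 in 20 such groups. The same library held 82.2 CPM of neutrophil markers, 51.1 of them from Ltf.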

How the results depend on the processing

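The call of Rac2 in DN+NaB against NC was kept in all 19 alternatives. The number of members called was 2 in place of 1 in DN+NaB against NC when only those groups were fitted, with the replicate block and by DESeq2 (Rac2 and Cybb), and 1 to 2 with 1 library left out; it was 1 in place of 0 by DESeq2 in each of the other 2 comparisons, and 0 to 1 in DN+NaB against DN and 0 in DN against NC with 1 library left out. Genes called in DN+NaB against DN were 4, but 22 with RLE factors, 26 by library size only, 27 with no filter, 17 at 1 CPM in 4 libraries, 0 in a fit of the 2 groups, 257 by DESeq2 and 0 to 67 with 1 library left out, the highest without DN replicate 3; those in DN against NC were 1443, and 942 to 1976 with 1 left out, the lowest without NC replicate 1; in DN+NaB against NC they were 2729, and 1833 to 3716 with 1 left out. With the replicate block 7, 1416 and 2891 genes were called in DN+NaB against DN, DN against NC and DN+NaB against NC. The replicate numbers were not taken to pair the libraries, since not every same-numbered pair had a correlation over 0.1 in deviations from the group means (-0.16 to 0.13 for numbers 1 to 3). The pairs of number 4 did (0.11, 0.23 and 0.21), and each was the best match of its library, a hint from the data only. DN+NaB replicate 2 also had its best matches in DN replicate 2 (0.13) and NC replicate 2 (0.065). Scaling by library size only moved the median of all genes to -0.12 in DN+NaB against NC and gave 875 higher and 2070 lower genes, against 1161 and 1568 with TMM; in DN against NC the split was 503 and 1103, against 669 and 774.

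Signs of members near 0 turned: in DN+NaB against NC, Cyba was -0.082 and Rac1 -0.068 by library size only and Cyba -0.0072 at 1 CPM in 4 libraries, and in DN against NC Rac1 was 0.0046 in the fit of the 2 groups and 0.00026 with the replicate block. With 1 library left out, DN against NC ran from -0.15 to 0.079 for Cyba, -0.53 to 0.15 for Cybb, -0.35 to 0.50 for Ncf1 and -0.060 to 0.024 for Rac1; DN+NaB against DN from -0.067 to 0.18 for Cyba and -0.41 to 0.11 for Nox4; and DN+NaB against NC from -0.031 to 0.084 for Cyba, -0.019 to 0.070 for Rac1 and -0.076 to 0.40 for Ncf4. Against Ptprc the ratios turned to 0.28 for Rac2 in DN against NC, to 0.48, 0.50, 0.22 and 0.31 for Cybb, Ncf1, Ncf4 and Rac2 in DN+NaB against DN, and to 1.07 and 0.59 for Cybb and Rac2 in DN+NaB against NC; with 1 library left out, the Ncf1 ratio in DN+NaB against NC ran from -0.10 to 0.17. The cause was not tested. With 3 libraries against 4 the smallest exact p is 0.0571, so these ratios could not pass.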

Other observations

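Duox2, a dual oxidase that releases hydrogen peroxide at epithelial surfaces, was near 0 in 10 libraries and higher in 1 library each of DN+NaB and DN. It had 137 counts in DN+NaB replicate 4 and 202 in DN replicate 4, against 0 to 8 in the other 10 libraries. Duoxa2, which brings the DUOX2 protein to the surface, had 27 and 88 counts in these 2 libraries and 0 to 4 in the others. The other dual oxidase gene, Duox1, had 6 to 36 counts per library and Duoxa1 0 to 6. These genes were chosen after their values were seen, and Duox2 and Duoxa2 did not pass the filter on low counts.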
